A study of Drosophila melanogaster with 4 samples.

Results

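The poly(A) mRNAs of whole ovaries enriched for germline cysts were described from the libraries labelled input, replicates 1 and 3, which were made from total lysate. Of 17699 gene IDs, 8103 (45.8%) had 10 or more counts in both inputs, and these are the genes described. The series holds 4 libraries, 2 input and 2 polysome, and no polysome value enters here. The study used them to follow mRNA level and translation as Drosophila germline stem cells differentiate.

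Both inputs came from ovaries of Drosophila melanogaster in which UAS-Dicer2 and bam RNAi are driven by NosGAL4 and which carry hs-bam. The nos-GAL4 driver is active in germ cells, where it expresses Dicer-2 and a hairpin against bam, while hs-bam is a heat-inducible bam transgene. Flies spent 2 h at 37 °C, rested for 4 h and were heated for a further 2 h, on each of 2 days. Ovaries were dissected 3 to 5 days after eclosion, input RNA was isolated with TRIzol, and poly(A) RNA was fragmented for 13 min. The somatic cells of the ovary are still present, cysts of several stages are mixed, and every fly was heated, so a response to heat and a property of cysts cannot be told apart. With 2 libraries of 1 group, and no label saying that they came from separate fly cultures, no test was run: a difference between inputs is a difference between 2 libraries, and intervals cover counting error only.

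In the germarium a stem cell divides to give a cystoblast, and Bam drives the cystoblast through incomplete divisions into an interconnected cyst. Within the cyst, cells enter meiosis, assemble the synaptonemal complex and form double-strand breaks, and 1 cell becomes the oocyte. Escort cells and then follicle cells wrap the germ cells, and a contractile muscle sheath surrounds each string of egg chambers. In such bulk samples, fewer cells of a type and less RNA per cell cannot be told apart.

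Gene counts totalled 10646651 in input 1 and 12298615 in input 3. Reads that named no gene were 42.6% of all reads in input 1 and 33.2% in input 3. Multimapping reads made up 23.4% and 8.11% of all reads, and reads on no annotated exon 11.5% and 17.7%, in the same order. The 10-count minimum equals 0.939 CPM (counts scaled to the same total of gene counts) in input 1 and 0.813 CPM in input 3. Just inside it, 27 genes had a smaller count of 10, with a median larger count of 33, and just outside, 28 genes had a smaller count of 9, with a median larger count of 35.5. The 8103 genes held 99.8% of CPM in input 1 and 99.7% in input 3, and 7375 IDs had no count in either input. By annotation, 7801 of the 8103 were protein-coding, which is 56.4% of all protein-coding IDs, against 6.37% of the non-coding RNA IDs. On chromosome 4, 68.5% of 111 IDs passed, and on the Y chromosome 1 of 113.

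TPM, which divides each count by summed exon length and so allow genes to be compared, were concentrated in few genes. The 10 most abundant genes held 13.6% of TPM in input 1 and 13.9% in input 3, and the 100 most abundant held 49.4% and 47.5%. Of those 100, 90 were the same in both inputs. It took 104 genes in input 1 and 115 in input 3 to reach 50% of TPM. Above 1000 TPM lay 148 genes, with 55.9% and 54.1% of the total, whereas the 5334 genes between 10 and 100 TPM held 19.3% and 19.8%. The median gene stood at 27.8 TPM in input 1 and 28.7 TPM in input 3. The inputs therefore had nearly the same distribution of abundance, although single genes differed.

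**Figure D1:**
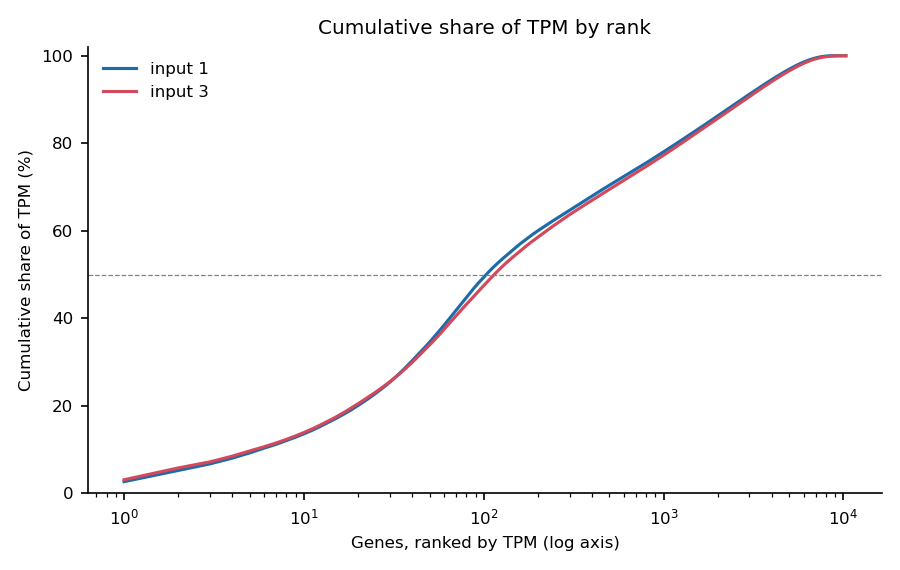
Cumulative share of TPM (y axis, %) over genes ranked by TPM in their own library (x axis, log scale), with a line for each input. The lines lie close together and cross 50% at 104 genes in input 1 and 115 genes in input 3.

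The mRNA pool was dominated by the protein synthesis machinery. Of the 25 genes with the highest mean TPM, 19 encoded cytoplasmic ribosomal proteins, and 72 of the top 100 did. RpL41, the smallest protein of the large subunit, had 25698 TPM in input 1 and 31076 TPM in input 3. RpS27A, which is made as a fusion to ubiquitin, had 10749 and 9431 TPM. RpL23 followed with 8721 and 8333 TPM, so the order of these genes was the same in both inputs. Together the 88 ribosomal protein genes that passed, out of 92 IDs, held 36.5% of TPM in input 1 and 33.6% in input 3. These mRNAs are short, and as a share of CPM, which does not correct for length, they held 20.3% and 16.2%.

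Elongation factors stood beside them. eEF1alpha1, which brings aminoacyl-tRNA to the ribosome, had 12037 TPM in input 1 and 13894 TPM in input 3 and led all genes by CPM, with 18915 and 19412. eEF2, the translocase, had 3638 and 3487 TPM. eEF5, formerly eIF5A, had 5122 and 4370 TPM. The 53 translation factor IDs, of which 45 passed, held 3.51% and 3.70% of TPM.

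Several ribosomal protein genes have a second copy or a gene of like name, and the share of that second gene differed from pair to pair. RpS19b, a paralog enriched in early germ cells, had 377 TPM in input 1 and 400 TPM in input 3, or 9.36% and 13.3% of the TPM of RpS19a and RpS19b together. RpS5b, another paralog known from the female germline, made up 13.6% and 18.4% of its pair with RpS5a. RpL22-like made up 1.35% and 2.02% of its pair with RpL22. These 3 shares were higher in input 3, and the other 5 of the 8 pairs examined had the lower share there. RpS10a made up 3.56% and 2.45% of its pair with RpS10b, RpS15Ab 3.29% and 1.98%, and RpL34a 34.0% and 32.1%. RpL24-like made up 18.6% and 12.7% of the TPM of RpL24 and RpL24-like together, but whether it is a second copy of RpL24 was not examined. RpS14b had 1811 TPM in input 1 and 653 TPM in input 3 while RpS14a had 1689 and 1393 TPM. These pairs were chosen after their values were seen, and only reads that map to 1 place were counted, so near-identical copies such as RpS14a and RpS14b are uncertain.

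Heat-inducible genes were among the most abundant mRNAs. Hsp23, a small heat shock protein gene of 884 exonic bases on chromosome 3L, had 26801 TPM in input 1 and 27017 TPM in input 3, second to RpL41 by mean TPM. Hsp26, a related chaperone, had 13206 and 11950 TPM, and Hsp27 had 1707 and 1907 TPM. Hsp83, the fly Hsp90, had 3040 and 3587 TPM, and Hsp68, an inducible Hsp70 family member, had 1527 and 1898 TPM. By CPM these 5 genes differed between the inputs by at most 1.24-fold, for Hsp26. The 18 heat-inducible IDs, of which 14 passed, held 4.73% of TPM in input 1 and 4.88% in input 3, against 0.798% and 0.837% for the 9 constitutive chaperone IDs, of which 8 passed, led by Hsc70-4 with 4332 and 4409 TPM. Hsp22 was listed at 0 in both inputs, and its exons overlap those of another gene on the same strand, a case in which reads are left uncounted.

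The 4 Hsp70 copies that passed did not follow Hsp23. Hsp70Ab (chromosome 3R, 11958535 to 11960909) had 118 CPM in input 1 and 611 CPM in input 3, 5.17-fold higher in input 3 (95% counting interval 4.87 to 5.49). Hsp70Aa had 108 and 518 CPM, Hsp70Bb 90.9 and 272 CPM, and Hsp70Bc 88.1 and 189 CPM. All 4 were at least 2-fold higher in input 3, where 583 of the 8103 genes, or 7.19%, were. The copies are near-identical and multimapping reads, which they give, were 23.4% of reads in input 1 and 8.11% in input 3, so their levels are uncertain. Hsp70Ab also shares exons with a gene on the other strand, and its count without regard to strand was 1 in input 1 and 3 in input 3. Whether the multimapping share had a part in the Hsp70 difference was not tested.

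Outside these classes, 10 of the 100 most abundant genes belonged to none of the 37 lists used. CG43134, of 407 exonic bases, had 14860 TPM in input 1 and 8717 TPM in input 3, and CG6770 had 7280 and 13102 TPM, so that their order was reversed between the inputs. Sumo, which encodes the small ubiquitin-like modifier, had 2801 and 4887 TPM. The others were sesB (the mitochondrial adenine nucleotide translocase), Cyp1 (a cyclophilin), Rack1 (a scaffold on the small subunit), tsr (cofilin), pAbp (the poly(A) binding protein), Tsp42Ee (a tetraspanin) and Tctp, at 1813 to 3711 TPM. Histone mRNA could be read only in part. All 111 replication-dependent histone IDs, whose mRNAs as a rule carry no poly(A) tail and come from repeated genes, were listed at 0. Multimapping reads are not counted, so this 0 gives no level for them. The 5 histone variants passed, led by His4r with 3204 and 4123 TPM and His3.3B with 1024 and 1275 TPM.

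Germline classes were moderate in level and somatic classes were led by muscle. The 91 IDs of 5 germline lists, of which 86 passed (germ cell and cyst regulators, piRNA pathway, synaptonemal complex and cohesion, meiotic recombination, oocyte and maternal mRNAs), held 0.377% of TPM in input 1 and 0.436% in input 3. The 69 IDs of 5 somatic lists, of which 56 passed (muscle sheath, follicle cell lineage, yolk proteins, eggshell, niche and escort cells), held 2.98% and 3.43%. Without the muscle genes the somatic share was 0.713% and 0.746%. The lists are samples of known markers, so these shares measure the listed genes and not the share of germ cells.

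The markers spanned a wide range of levels. Positions are those of annotation BDGP6.54 on the dm6 assembly. Act57B (chromosome 2R, 20944021 to 20946431), a muscle actin, was highest with 7153 TPM in input 1 and 7597 TPM in input 3. It was followed by Mlc2, the myosin regulatory light chain of muscle, with 2958 and 3449 TPM. The yolk protein genes came next, Yp2 with 1881 and 1796 TPM and Yp1 (chromosome X, 10053811 to 10055498) with 1547 and 1441 TPM. The order of these 4 was the same in both inputs and their ranges did not overlap.

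Vm26Ab, a vitelline membrane protein gene of follicle cells, had 584 and 808 TPM, and Mhc, the muscle myosin heavy chain, had 307 and 655 TPM. The germline helicase gene vas (chromosome 2L, 15061656 to 15074311) had 139 TPM in input 1 and 113 TPM in input 3. It shares exons with the gene solo on the same strand, where reads common to both are left uncounted, so its level may be understated. c(3)G (chromosome 3R, 15789473 to 15792579), the transverse filament of the synaptonemal complex, had 88.0 and 105 TPM. bam (chromosome 3R, 25243039 to 25245109), the cystoblast differentiation factor, had 43.4 and 115 TPM. In input 1 vas stood above c(3)G and c(3)G above bam, whereas in input 3 the 3 genes lay within 105 to 115 TPM. Counts of bam add the endogenous mRNA, what the hairpin left of it and the transgene, which cannot be told apart.

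Lower in the order, Rbfox1, which promotes exit from the mitotic divisions of the cyst, had 20.0 and 47.3 TPM, and ord, a sister chromatid cohesion gene, had 36.1 and 38.5 TPM. The late oocyte mRNAs were near the bottom. grk, the ligand that patterns the egg chamber, had 12.4 and 10.3 TPM. osk (chromosome 3R, 8935126 to 8938395), the organiser of germ plasm, had 6.88 and 3.35 TPM, and bcd, the anterior determinant, 3.60 and 3.00 TPM. Exons of osk overlap those of another gene on the same strand, where shared reads are left uncounted, so its level may be understated. Of the niche markers, ptc, the Hedgehog receptor, had 9.31 and 16.7 TPM, hh itself 3.05 and 3.81 TPM, and en was listed at 0 in both. Of the 21 neighbouring pairs in the order of 22 markers, 13 overlapped between their 2 inputs and so were not separated. Dcr-2, which the flies also carry as a transgene, had 62.0 and 66.8 TPM.

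The label of cyst-enriched ovaries can be set against these values. The germ cell markers vas and bam and the cyst markers c(3)G, ord and Rbfox1 all passed, at 20.0 to 139 TPM, above osk, grk and bcd in both inputs. Yp1, Yp2 and Vm26Ab, taken as follicle cell markers, exceeded every germline marker. Whether other tissues gave part of the yolk protein mRNA was not tested. The other members of that marker set did not. tj had 69.3 and 141 TPM, below vas and c(3)G in input 1 and above both in input 3. Cp36, a chorion gene, had 7.13 and 2.31 TPM, below vas, bam, c(3)G, ord and grk. Several lists for other tissues were low: the 10 fat body IDs, of which 6 passed, held 0.00490% and 0.00586% of TPM, the 8 neuronal IDs, of which 5 passed, 0.00138% and 0.00216%, and the 17 testis IDs, of which 4 passed, 0.00679% and 0.00704%. None of 12 digestive enzyme genes passed. Enzymes known from oenocytes were higher, with 0.133% and 0.0616% of TPM over 7 IDs, and are described at the end. Much of that share was Desat1, with 476 and 367 TPM, and Cyp4g1, with 553 and 90.1 TPM. Whether these mRNAs came from oenocytes was not tested. The 13 haemocyte IDs, of which 12 passed, held 0.0913% and 0.130%, led by Col4a1 with 224 and 338 TPM and Pxn with 234 and 320 TPM, matrix genes that follicle cells and fat body can express as well. The blood cell receptor genes NimC1 and eater were at 23.5 and 18.2 TPM and at 9.01 and 8.78 TPM.

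**Figure D2:**
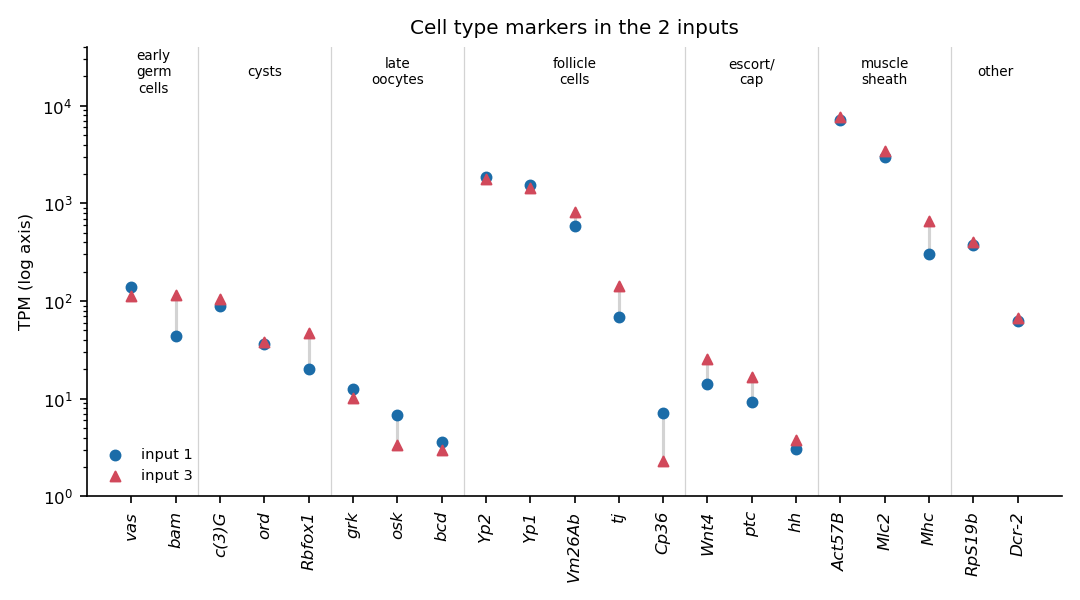
TPM (y axis, log scale) of cell type markers in input 1 (circles) and input 3 (triangles), grouped by the cell type they mark, with a grey line joining the 2 values of each gene; en, listed at 0 in both, is not drawn. Act57B, Mlc2, Yp1 and Yp2 lie above 1000 TPM, vas, bam and c(3)G between 43.4 and 139 TPM, and osk, grk and bcd below 12.5 TPM.

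Among the 17 germ cell and cyst regulators, all of which passed, levels ran from RpS19b down to orb, the cytoplasmic polyadenylation factor of oocytes, with 7.32 and 14.2 TPM. Sxl, the sex-determination RNA-binding protein that also acts in stem cell daughters, had 94.4 TPM in input 1 and 190 TPM in input 3. zpg, the germline gap junction protein, had 141 and 96.6 TPM. ovo, a germline transcription factor, had 64.5 and 108 TPM. The partners of Bam in translational repression were lower, with 15.6 and 18.8 TPM for bgcn, 19.7 and 19.9 TPM for tut, and 9.87 and 25.4 TPM for mei-P26. By TPM all 3 were below bam itself in both inputs. For mei-P26 this order rests on its summed exon length, which is far greater than that of bam. Before division by length, mei-P26 had more counts than bam in both inputs.

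The piRNA pathway, which silences transposons, was detected in full, with 29 of 29 genes and 0.176% and 0.189% of TPM. armi, the helicase that loads Piwi, had 188 and 190 TPM, and piwi, the nuclear Argonaute of germline and soma, had 142 and 176 TPM. aub, the cytoplasmic Argonaute of germ cells, had 55.0 and 52.8 TPM and AGO3 108 and 84.3 TPM. tud, a scaffold of the nuage, had 64.6 and 150 TPM, the highest ratio of the list. Panx, a nuclear silencing factor, had 41.2 and 19.3 TPM, the lowest ratio.

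The 7 synaptonemal complex and cohesion genes also all passed. cona and corolla of the central region had 222 and 257 TPM and 56.3 and 88.4 TPM. The cohesion genes ord and sunn had 36.1 and 38.5 TPM and 32.1 and 34.4 TPM, and c(2)M of the lateral element had 20.1 and 21.9 TPM. For 5 of the 7 genes, corolla and solo being the exceptions, the log2 CPM ratio of input 3 to input 1 lay between -0.07 and 0.08. solo, with 15.3 and 38.4 TPM, shares exons with vas on the same strand, where reads common to both are left uncounted.

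Recombination genes were lower. Of 20 listed, 18 passed, with a median of 8.27 TPM in input 1 and 10.9 TPM in input 3. okr, a helicase-like repair protein, had 15.6 and 24.6 TPM. mei-W68, the Spo11 homolog that makes the breaks, had 1.02 and 2.99 TPM, from 16 and 48 counts, and its partner mei-P22 had 5.32 and 2.02 TPM, from 36 and 14 counts. These 2 genes were near the lower end of what was counted and had their higher value in different inputs, but trem, a zinc finger factor also needed for breaks, had 27.3 and 20.1 TPM, and narya, of the RING finger family at recombination sites, 12.8 and 31.5 TPM. mei-217 and mus312 were listed at 0 in both, and each shares exons with a gene on the same strand.

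The 15 oocyte and maternal genes that passed, out of 18, were led by genes of mRNA transport. stau, which localises mRNAs in the oocyte, had 49.6 and 111 TPM. BicD and egl, which link mRNAs to dynein and are needed to specify the oocyte, had 42.5 and 45.1 TPM and 30.8 and 44.6 TPM. The egg maturation and activation genes gnu, png and cort had their higher value in input 1. gnu and png, both parts of the PAN GU kinase, had 38.5 and 23.0 TPM and 12.2 and 2.70 TPM. cort, an activator of the anaphase-promoting complex in meiosis, had 8.63 and 5.11 TPM. png and cort were below stau, BicD and egl in both inputs, whereas gnu was above egl in input 1.

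In the soma, muscle genes stood out by level. Of 22 sheath genes, 20 passed, with a median of 449 TPM in input 1 and 652 TPM in input 3, against 28.1 and 42.2 TPM for the germ cell regulators. Mp20, a calponin-like protein, had 3538 and 3794 TPM. The troponin genes wupA and up had 1498 and 2193 TPM and 1194 and 1846 TPM. TpnC4 and TpnC41C, troponin C genes, did not pass, with 0 counts in input 1 and 33 and 15 counts in input 3.

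Eggshell genes differed widely in level, with a median of 17.6 TPM in input 1 and 20.7 TPM in input 3 over those that passed. The highest were the vitelline membrane genes Vm26Aa, Vm34Ca and Vm26Ab, with 991 and 812 TPM, 653 and 931 TPM, and 584 and 808 TPM. The lowest mean of those that passed was that of clos, with 0.367 and 2.12 TPM. The chorion genes, which follicle cells use later, were lower than these vitelline membrane genes, with 39.7 and 37.6 TPM for Cp18 and 7.13 and 2.31 TPM for Cp36. Cp16 and Cp19 did not pass, with 111 and 87 counts in input 1 but 5 and 6 in input 3. The 21 eggshell IDs, of which 15 passed, held 0.250% and 0.280% of TPM.

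The follicle cell lineage was represented by 10 of 12 genes. Fas3, an adhesion protein of early follicle cells, had 143 and 181 TPM, and tj, the Maf factor of somatic gonad cells, had 69.3 and 141 TPM. slbo, the border cell factor, was listed at 0 in both inputs. Niche and escort cell genes were lower, with 8 of 11 passing: dpp, the BMP ligand for stem cells, had 12.7 and 31.2 TPM and Wnt4, of escort cells, 14.3 and 25.8 TPM.

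Between the inputs, 583 of the 8103 genes (7.19%) were at least 2-fold higher by CPM in input 3 and 970 (12%) at least 2-fold higher in input 1. Past 4-fold were 73 and 163 genes. Across genes, which are not independent replicates, log2 CPM correlated at Pearson r = 0.92 (Spearman rho = 0.93). The median log2 ratio was -0.11, with an interquartile range of -0.59 to 0.37, and list medians are read against it. Of the genes past 2-fold, 37.5% were higher in input 3, a share that became 47.1% with TMM scaling and 48.7% with RLE scaling, which moved the median log2 ratio by 0.10 and 0.12. Counting intervals reached, at the median gene, 0.20 to either side on the log2 scale, which is narrower than that range.

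The ratio followed gene length. In 10 groups of 802 to 805 genes by exon length, the median log2 ratio was -0.35 in the shortest, of up to 842 bases, -0.44 in the next, and 0.60 in the longest, of 6035 bases or more. Of the shortest genes 21.1% were at least 2-fold higher in input 1 and 6.22% in input 3, whereas of the longest 1.37% and 21.4% were. Genes past 2-fold in input 3 had a median exon length of 3289 bases, those in input 1 of 1451 bases, and all annotated genes that passed of 2147 bases. Short non-coding classes did not all follow the trend: 23 snoRNAs, of median length 141 bases, had a median log2 ratio of -1.07, and 8 snRNAs, of median length 164 bases, of 0.39. Because of this trend, each list’s median is also given after the median of its length group was taken off each gene, a setting added after the data were seen. On that scale 591 genes were at least 2-fold higher in input 3 and 626 in input 1, so 48.6% of them were in input 3. What in the libraries moved with length was not tested.

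**Figure D3:**
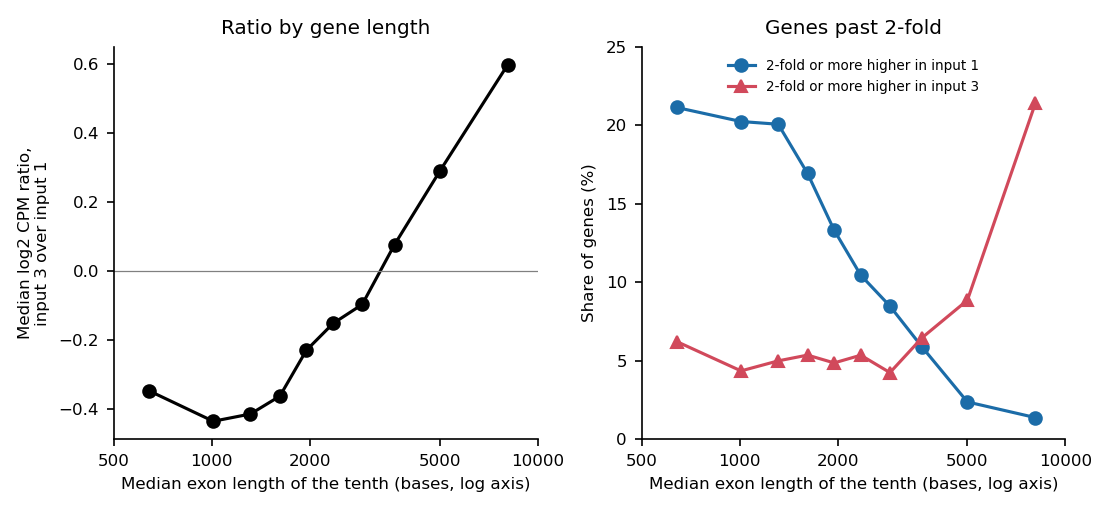
Left, median log2 CPM ratio of input 3 to input 1 (y axis) in 10 groups of genes by exon length (x axis, bases, log scale). Right, the share of genes (%) at least 2-fold higher in input 1 (circles) or in input 3 (triangles); the median runs from -0.35 in the shortest to 0.60 in the longest group.

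For most housekeeping classes the lower values in input 3 went with their short mRNAs. Of the 88 ribosomal protein genes, 0 were at least 2-fold higher in input 3 (against 7.19% of all genes) and 3 in input 1 (against 12%). Their median log2 ratio was -0.38, and -0.003 once length was taken off. The same held for the 71 mitochondrial ribosomal proteins, at -0.39 and then -0.02, for 31 proteasome subunits, at -0.39 and then -0.04, and for 69 oxidative phosphorylation genes, at -0.46 and then -0.11, all near the level of genes of like length. The 12 glycolytic genes, of ordinary length, stayed lower, at -0.45 and then -0.31. Of these 12, 11 lay below the median of all genes; Gapdh2 had 591 TPM in input 1 and 476 TPM in input 3 and Gapdh1 251 and 160 TPM. Hex-A, the hexokinase, was the exception with 74.5 and 120 TPM.

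For germ cell genes, many of them long, the trend ran the other way. The 17 germ cell and cyst regulators had a median log2 ratio of 0.47, with 3 at least 2-fold higher in input 3 (against 7.19% of all genes) and 0 in input 1 (against 12%), but 0.09 once length was taken off. The 3 were bam, mei-P26 and Rbfox1. bam had 53.8 CPM in input 1 and 127 CPM in input 3, 2.36-fold higher in input 3 (95% counting interval 2.15 to 2.61). Its exons overlap those of a gene on the other strand. Without regard to strand, bam had 538 counts in input 1 and 1228 in input 3, against 573 and 1565 by strand, a smaller ratio. With 1946 exonic bases it was of ordinary length, and its log2 ratio was 1.24 before and 1.47 after length was taken off. Rbfox1 (2.11-fold) and mei-P26 (2.29-fold), of 8305 and 23228 exonic bases, went from log2 ratios of 1.07 and 1.19 to 0.48 and 0.59. vas and zpg were lower in input 3, by log2 ratios of -0.46 and -0.72. The 8 fusome and ring canal genes, including hts and the spectrins of the cyst's shared cytoskeleton, gave 0.55 and then 0.04. That list is not 1 of the germline lists, and its counts can come from somatic cells as well.

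In the other germline lists genes lay on both sides. Among 29 piRNA genes (median -0.15, then -0.01) tud was at least 2-fold higher in input 3, and Panx and Gasz in input 1. These were 3.45% and 6.90% of the list, below the 7.19% and 12% of all genes. Among 18 recombination genes (median 0.18, then 0.24) 4 were at least 2-fold higher in input 3, against 7.19% of all genes, namely narya, nenya, mei-W68 and Brca2. Toward input 1 there were 2, mei-P22 among them, which is near the 12% of all genes. Over the 6 recombination genes that share no exon with another gene, the median was -0.46, so the sign of this list's median was not stable. The oocyte and maternal list had a median of -0.43 (then -0.28), with 0 of 15 genes at least 2-fold higher in input 3 (against 7.19% of all genes) and 4 in input 1 (against 12%): png, osk, swa and pgc. osk had 12.6 CPM in input 1 and 5.45 CPM in input 3, 2.31-fold higher in input 1 (95% counting interval 1.71 to 3.15).

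The follicle cell lineage had the highest median of any list with 5 or more genes, 1.21, but 0.83 once length was taken off, where the immune peptides stood higher at 1.30. Of its 10 genes 5 were at least 2-fold higher in input 3, against the 7.19% of all genes, and 0 in input 1, against 12%. cas, a transcription factor of polar and stalk cell precursors, had 33.7 CPM in input 1 and 113 CPM in input 3, 3.35-fold higher in input 3 (95% counting interval 2.98 to 3.77). upd1, the polar cell ligand of the JAK/STAT pathway, had 1.78 and 8.21 CPM from 19 and 101 counts. zfh1, peb and br, all transcription factors, were the others. tj stood at 154 and 280 CPM, and Fas3, eya and Cad99C had log2 ratios of -0.04 to 0.16. Late follicle products were at other values: the 3 yolk protein genes had a median of -0.27 and the 15 eggshell genes of -0.29, and both medians turned positive (0.09 and 0.10) once length was taken off. Of the 15 eggshell genes clos was at least 2-fold higher in input 3 (against 7.19% of all genes) and Cp15, Cp36 and Cp7Fc in input 1 (against 12%). clos had 14 and 83 counts, against 9010 and 17510 on the other strand, where another gene shares its exons. Whether reads of that gene entered the clos count was not tested. The eggshell median leaves out 6 IDs. Among them, the chorion genes Cp16 and Cp19 had more counts in input 1 and failed the minimum in input 3 only.

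Muscle genes were somewhat higher in input 3, with a median log2 ratio of 0.34 over 20 genes, and 0.35 once length was taken off. The giant sarcomere proteins led: sls, a titin-like protein of 58996 exonic bases, had 175 CPM in input 1 and 678 CPM in input 3, 3.87-fold higher in input 3 (95% counting interval 3.68 to 4.08), and bt, the twitchin homolog, had 466 and 1558 CPM. Obsc (obscurin) was the third of the 20 past 2-fold, against 7.19% of all genes, and 0 were in input 1, against 12%. The most abundant sheath mRNAs, Act57B, Mp20 and Mlc2, had log2 ratios of only -0.08, -0.07 and 0.05, so not all of the class was higher.

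**Figure D4:**
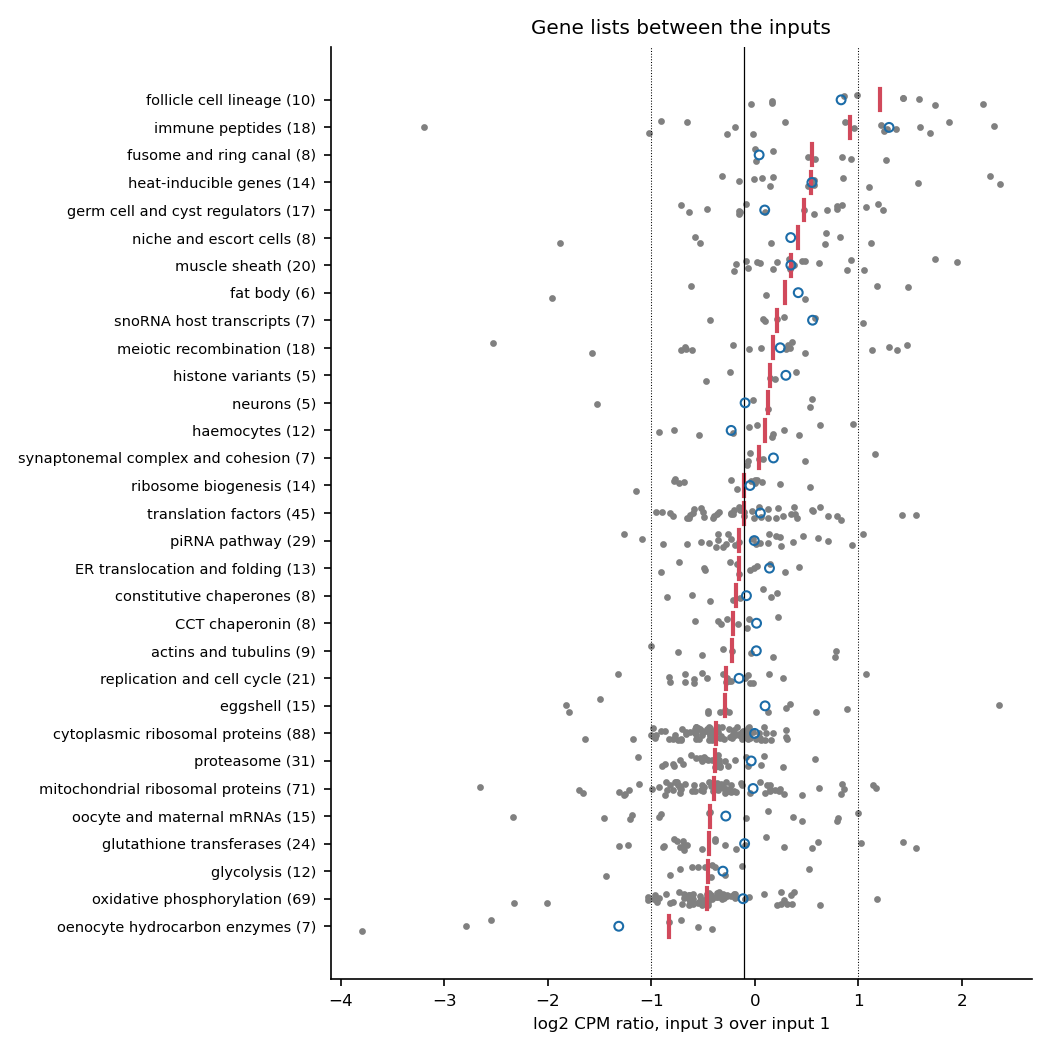
Log2 CPM ratio of input 3 to input 1 (x axis) for each gene (grey points), by list. Drawn are the lists with 5 or more genes that passed, except the long non-coding RNAs, with the number of genes in brackets. Red bars are list medians, and open blue circles are medians after the length group median was taken off. Dotted lines mark 2-fold and the solid line the median of all genes. The follicle cell lineage is highest at 1.21 and the oenocyte list, added after values were seen, lowest at -0.83.

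Heat-inducible and immune genes differed between the inputs within their classes. The 14 heat-inducible genes had a median log2 ratio of 0.54 (0.55 once length was taken off). The 4 Hsp70 copies were past 2-fold in input 3, against 7.19% of all genes, while Hsp23 stood at -0.16 and Hsp26 at -0.31. The 18 immune peptide genes that passed, out of 26, had a median of 0.91 (then 1.30), with 8 (against 7.19% of all genes) at least 2-fold higher in input 3 and 2 (against 12%) in input 1. The most abundant of them were not among the 8: Drs (drosomycin) had 89.8 CPM in input 1 and 57.0 CPM in input 3, BomS2 38.8 and 20.7 CPM, and BomS6 a log2 ratio of -0.02. BomS1, of the same Toll-induced Bomanin family as BomS2, had 5.17 CPM in input 1 and 25.7 CPM in input 3, 4.97-fold higher in input 3 (95% counting interval 3.73 to 6.75). Mtk (metchnikowin) had 7.23 and 26.6 CPM, and DptA and DptB (diptericins) and AttC (attacin) were also among the 8. Def (defensin) went the other way, with 14.2 CPM in input 1 and 1.54 CPM in input 3, as did CecA1 (a cecropin), at 88 and 50 counts. These genes are expressed mainly in fat body and blood cells, whose lists had medians of 0.29 and 0.09, and that of the blood cells turned to -0.23 once length was taken off. The part of those tissues in the immune values was not tested.

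The largest ratios were mostly in genes outside the lists. The 12 genes with the largest ratios toward input 3, at a mean of 10 CPM or more, were Buffy, Tmc, LUBEL, CG6912, CG13992, alpha-Man-IIb, bgm, sage, CG15431, Ca-alpha1T, CG14830 and Hsp70Ab. Buffy, a Bcl-2 family member, had 13 counts in input 1 and 314 in input 3, 20.9-fold higher in CPM in input 3 (95% counting interval 12.05 to 39.7). Tmc, a mechanosensory channel, had 21 and 341 counts, and LUBEL, a linear ubiquitin ligase, 22 and 310 counts. sage, a salivary gland transcription factor, had 38 and 269 counts, and the calcium channel gene Ca-alpha1T 110 and 699 counts. These 5 genes belong to none of the lists used.

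Toward input 1 the 12 were 28SrRNA-Psi:CR40596, sr, CG15861, JMJD4, l(1)G0004, ine, asRNA:CR45873, Dim1, Saysd1, ksh, CG14777 and btl. 28SrRNA-Psi:CR40596, a pseudogene of the 28S ribosomal RNA on the rDNA scaffold (16936 to 22940), had 2490 counts in input 1 and 40 in input 3, 71.9-fold higher in CPM in input 1 (95% counting interval 52.7 to 101). Multimapping reads, which ribosomal RNA gives, were also more frequent in input 1 (23.4% against 8.11%), and the part of ribosomal RNA in them was not tested. sr, a tendon cell transcription factor, had 233 and 15 counts, and btl, the tracheal FGF receptor, had 226 and 36 counts. Of the 12 genes in each direction, 4 toward input 3 and 5 toward input 1 share exons with a gene on the other strand.

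A group of enzymes for cuticular hydrocarbons, chosen after its values were seen, was higher in input 1. Oenocytes, cells beneath the cuticle of the abdomen, are known for these enzymes. Cyp4g1 (chromosome X, 467057 to 469335), which makes hydrocarbons by decarbonylation, had 804 CPM in input 1 and 116 CPM in input 3, 6.91-fold higher in input 1 (95% counting interval 6.53 to 7.31). Fad2, a female desaturase, had 56.6 and 9.68 CPM, and the female elongase eloF had 156 and 13 counts. The other 4 genes that passed, Desat1, spidey, Cpr and FASN2, had log2 ratios of -0.83 to -0.42, so all 7 were higher in input 1, and the list's median was -0.83, or -1.32 once length was taken off. By level, Cyp4g1 had 553 TPM in input 1 and 90.1 TPM in input 3, above vas in the former and below it in the latter.

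**Figure D5:**
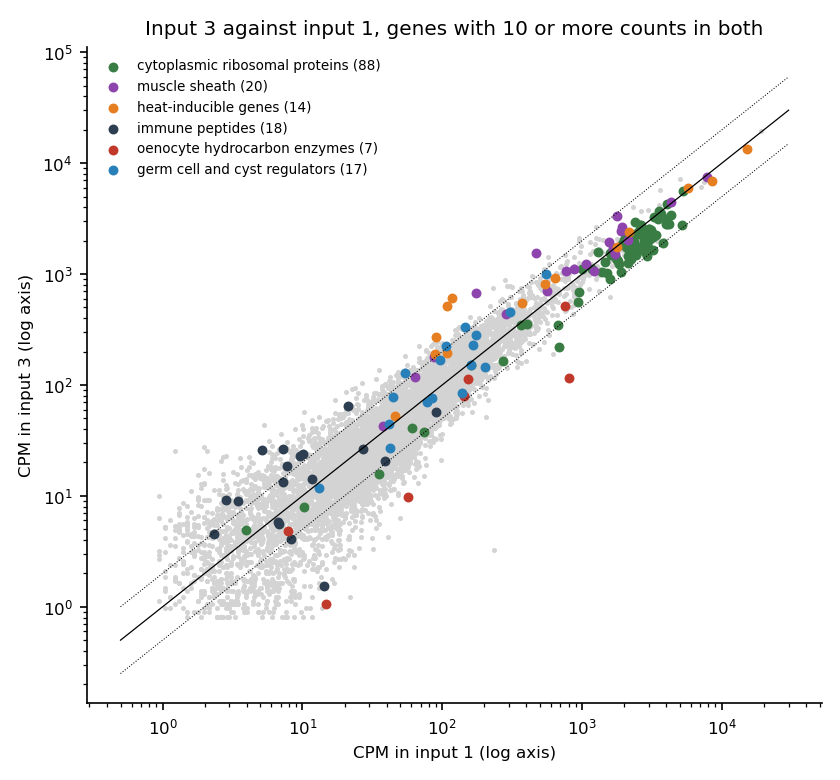
CPM in input 3 (y axis) against input 1 (x axis), both on log scales, for the 8103 genes (grey), with 6 lists in colour; the solid line marks equal CPM and the dotted lines 2-fold. Most ribosomal protein genes lie below the solid line, Hsp70 copies and 8 immune peptides above the upper dotted line, and Cyp4g1, Fad2 and eloF below the lower one.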

How the data were processed

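Poly(A) RNA was sequenced with a directional kit. The submitters' processing notes name dm6 and STAR 2.6.1c. The authors deposited the raw STAR gene counts, with no scaling. Column 4, the strand a directional dUTP kit gives, held 96.4% and 95.3% of strand-assigned counts in inputs 1 and 3 and was used. STAR counts reads that map to 1 place and leaves out those shared by genes. Reads naming no gene (42.6% and 33.2%) stayed out of totals. Polysome libraries were not used.

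CPM used summed gene counts, and TPM the summed exon length from annotation BDGP6.54 release 115, which held 17561 of the IDs; the other 138 carried 1.12% and 1.19% of counts and have no TPM. No sequence is printed. Calls are a CPM ratio of 2 or more, not a test; intervals are 95% exact Clopper-Pearson intervals of the ratio of 2 counts, for counting error only. Scripts ran in Python 3.11.15 (pandas 2.3.3, scipy 1.17.1) and R 4.3.3 (edgeR 4.0.16, for TMM and RLE factors only) and were tested on simulated data.

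The genes and the 37 lists were chosen with earlier results of these data known; some lists are taken by name pattern, so paralogs enter. Named genes were the 25 highest by mean TPM, the 12 largest ratios per direction at a mean of 10 CPM or more, the markers with bam, Rbfox1, RpS19b, ord and Dcr-2, and, by the rule, in each list the 3 highest by TPM and the highest and lowest ratio, of which only part is printed. Other list members, the ribosomal paralog pairs and the oenocyte list were named after their values were seen. Of the list entries 5, nos among them, are not analysed here. Alternatives were TMM and RLE factors, unstranded counts, minimums of 50 counts or none (a prior count of 1), totals without the 25 most abundant genes, CPM or the longest transcript for TPM, and each input alone.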

Additional observations from a re-analysis of the deposited data

Results flagged for a closer look

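The deposited count column for the other strand, which the comparisons do not use, held counts above the 3 that a count of 0 allows. Zmynd10 had 1879 counts on the other strand in input 1 and 5262 in input 3, against 0 and 2 on its own strand. Mdr50 had 583 and 1592 counts on the other strand, against 0 and 5, and AttB had 388 and 957, against 0 and 53. Of the annotated genes, 14 had at least 100 counts on the other strand in both inputs and more there than on their own strand.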

How the results depend on the processing

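With CPM in place of TPM, 50% of the total lay in 315 genes, and the shares were 0.295% for germ cell regulators, 3.31% for muscle, 18.3% for ribosomal proteins and 3.51% for heat-inducible genes, the last 4.93% with unstranded counts and 4.58% with the longest transcript. In each input alone, 50% of TPM lay in 104 to 115 genes, and those shares were 0.108% to 0.134%, 2.27% to 2.68%, 33.6% to 36.5% and 4.73% to 4.88%. Genes at least 2-fold higher in input 3 numbered 378 at 50 or more counts in both and 2077 with no minimum, and in input 1 1475 with no minimum and 626 with length taken off. TMM and RLE factors gave 721 and 745 in input 3 and 809 and 786 in input 1. Median log2 ratios under TMM and RLE were 0.44 and 0.46 for muscle, -0.28 and -0.27 for ribosomal proteins, and 0.64 and 0.65 for heat-inducible genes, and RLE gave 0.59 for germ cell regulators. The follicle lineage gave 0.99 at 50 counts, 0.99 with no minimum, 0.83 with length taken off and 0.99 over genes sharing no exon with another. With length taken off, the medians were 0.095 for germ cell regulators, -0.0034 for ribosomal proteins and -0.11 for oxidative phosphorylation, and germ cell regulators sharing no exon gave 0.29. The length and exon settings were chosen after seeing the data. Of 36 list medians, length changed the sign of 10, the exon setting of 5, RLE of 2 and TMM of 0. The cause of these shifts was not tested.

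No paired analysis was possible because the values come from no test and only the inputs were used. With 2 libraries, depth does not limit the abundant classes, but the lack of replicates limits every difference between inputs, and genes near 10 counts carry wide counting intervals.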
